A study of Arabidopsis thaliana with 16 samples.

Results

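The loss of ANT activity was examined in gynoecia that already carried a seu mutation, by setting the seuss-3 aintegumenta-1 genotype (seu ant, 4 arrays) against the seuss-3 genotype (seu, 4 arrays). These 8 arrays were chosen by their genotype labels from the 16 ATH1 arrays of the study, whose other 8 arrays hold aintegumenta-1 (ant, 4 arrays) and Col-0 wild type (4 arrays). Each array carried RNA from a pool of 15 to 25 gynoecia dissected by hand from flowers of stages 8 to 10, on plants grown in 16 h days at 24 degrees C. All 8 gynoecium pools thus shared the seu-3 allele, and the ant-1 allele was what distinguished them, so the comparison asks what removing ANT changes when SEU function is already reduced. The ant-1 effect in the presence of SEU was read from ant against wild type, which uses none of the same arrays.

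ANT encodes an AP2-type transcription factor that is active in young lateral organs and sustains their growth, and SEU encodes a co-regulator that acts through DNA-binding partners and the corepressor LEUNIG. In the gynoecium both act in the carpel margin meristem, the ridge of dividing tissue on the inner medial side that gives rise to the placenta, ovules, septum, style and stigma. Regulators of organ polarity, auxin and cytokinin signalling, and members of the B3 family of DNA-binding proteins are known to be expressed in this region.

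The SEU transcript itself (AT1G43850) gave a signal of 235, 271, 267 and 273 in seu ant, against 181, 340.0, 325 and 309.9 in seu, so the loss of ANT was not accompanied by a detectable change (log2 difference -0.10, standard error 0.17, limma adjusted p = 0.794). Its signal was 909.7, 813, 749 and 943 in ant, against 978, 974, 974 and 786 in wild type, so the 8 arrays of the seu-3 genotypes all lay below the other 8 arrays, and the transcript was still measured in them. No probe set for ANT is used here, so the ant-1 label was not checked by its own transcript. The study's own normalized values list ANT as lower in ant than in wild type, and lower in seu ant than in seu. Of the 7 gynoecium markers only SPT was measured under a gene name, and it was well above the floor on all 8 arrays. Of 15 tapetum and pollen wall markers, only A9 and AMS were measured, and both stayed close to the floor, with no signal over 35.0 in seu ant or over 40.6 in seu. The petal, stamen and sepal identity markers AP3, PI and AP1 are not analysed here.

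Signals are MAS5 intensities on a linear scale, and those under 16 were set to 16, called here the floor, before log2 was taken. Signals below are given as deposited, so a value under 16 counts as 16 in the tests. Median signals were 167.4 to 177.7 on the seu ant arrays and 167.7 to 187.9 on the seu arrays. Arrays correlated at r = 0.976 to 0.984 within seu ant, at 0.981 to 0.986 within seu and at 0.962 to 0.978 between the genotypes. The number of arrays limits the precision. Standard errors and p-values rest on 1 estimate of the spread between pools for each probe set, shared by all 4 genotypes and adjusted by limma. Where the ant and wild-type arrays are all at the floor they add no spread, so these values can understate that of seu ant and seu.

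In seu ant gynoecia 1251 of 22746 probe sets, or 5.5% of those tested, were lower than in seu, and 1065, or 4.68%, were higher. A probe set was called when its limma Benjamini-Hochberg adjusted p was under 0.05 and its log2 difference exceeded 0.35, the limit the methods state. Large changes were mostly increases. Among called probe sets, 194 fell and 495 rose by more than 1 on the log2 scale, 37 fell and 69 rose by more than 2, and 6 fell and 8 rose by more than 3. Of the loci paired with a gene name, 688 were lower and 504 higher of 13286. Either direction together, 2316 probe sets (10.2%) were called. The 4 seu ant arrays all lay below the 4 seu arrays for 9.27% of probe sets and all above them for 6.8%. In RNA from whole gynoecia, fewer cells of a type and less RNA per cell cannot be told apart.

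Among loci paired with a gene name, the deepest decreases were in genes of protease-related annotation, in the polarity gene YAB3 and in REM-type B3 genes. Of called probe sets 37 fell by more than 2, but only 19 named loci did, so deep falls of unnamed probe sets are not described. AT5G17080, annotated as cathepsin-related, gave 21.5, 18.9, 62.4 and 34.5 in seu ant, against 1422, 1494, 2194 and 1713 in seu. Its log2 difference of -5.78 (standard error 0.34, limma adjusted p = 1.42e-06) was a 55.0-fold lower level in seu ant. A second cathepsin-related gene, AT1G03720, gave 27.6, 32.5, 60.2 and 47.7 in seu ant, against 482, 626, 515 and 538 in seu. It had a log2 difference of -3.75 (standard error 0.21, limma adjusted p = 1.03e-06), and in neither gene did the seu ant arrays come near the seu arrays.

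**Figure D1:**
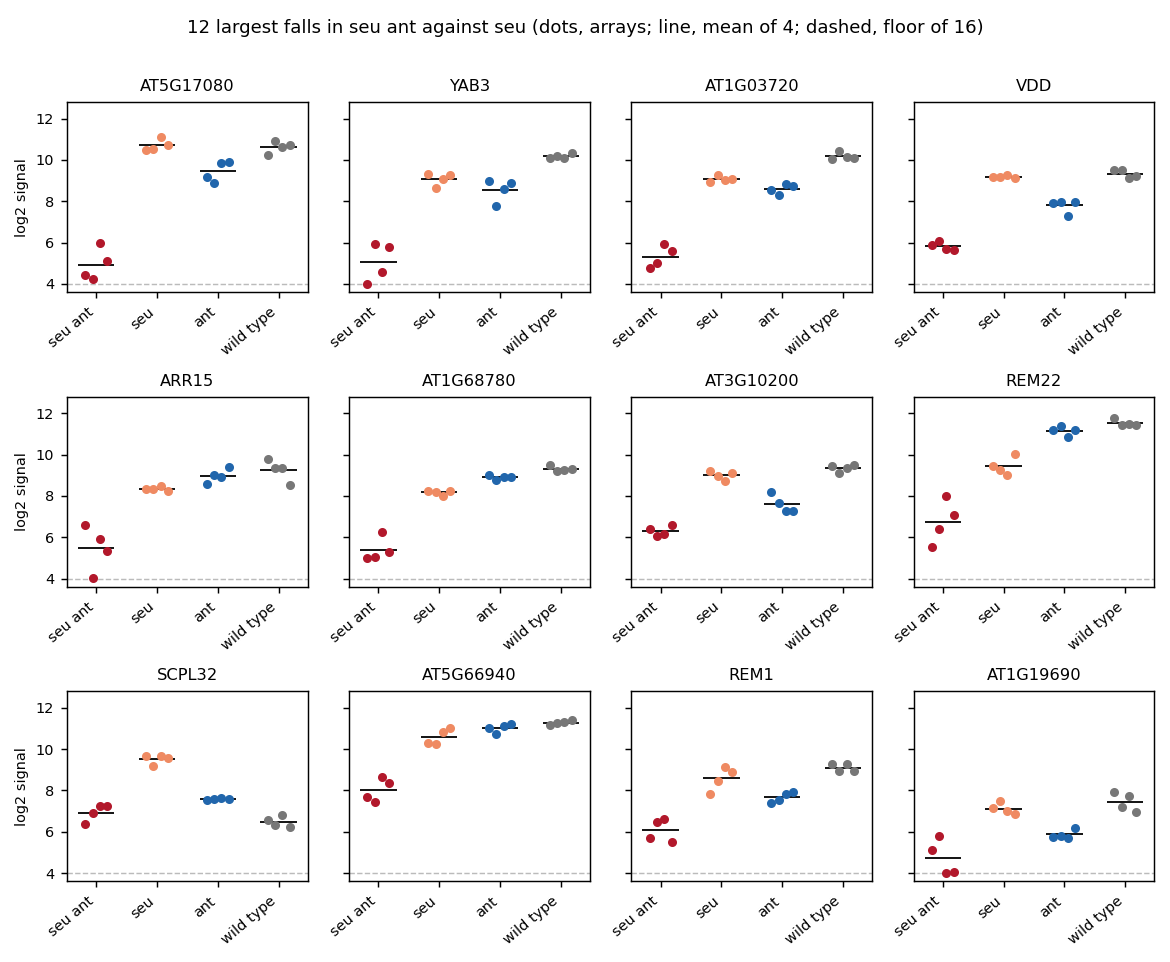
Signal on a log2 scale for the 12 largest falls in seu ant against seu among loci paired with a gene name. Each panel has 1 dot per array, a line at the mean of the 4 arrays of a genotype and a dashed line at the floor of 16. In every panel the 4 seu ant dots lie below the 4 seu dots, and for VDD the seu ant arrays sit between 50.3 and 67.4 on the linear scale while the seu arrays sit between 569 and 622.

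REM genes form a plant-specific branch of the B3 family of DNA-binding proteins, and many are expressed in reproductive meristems. Of 21 measured members, 8 were lower in seu ant, 1 was higher and 12 did not pass, with a median log2 difference of -0.54, where 5.5% of all probe sets were lower, 4.68% higher and the median was 0. With no floor the REM median was -0.85, with 9 lower and 1 higher. VDD (AT5G18000), which is needed for cell identity in the female gametophyte, gave 58.4, 67.4, 52.5 and 50.3 in seu ant, against 574, 584, 622 and 569 in seu. It had a log2 difference of -3.37 (standard error 0.15, limma adjusted p = 2.17e-07), a 10.3-fold lower level, and its arrays within each genotype differed little. The study had selected VDD, REM22, REM1, REM15 and REM16 on these same arrays, as it had YAB3, AT5G17080 and AT1G03720, so their direction is not independent evidence.

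REM22 (AT3G17010) gave 46.4, 84.8, 253 and 134 in seu ant, against 702, 606, 509 and 1035 in seu. The spread among seu ant arrays was wide, yet the highest seu ant array remained below the lowest seu array, and the decrease of -2.68 passed (standard error 0.39, limma adjusted p = 0.00126). REM1 (AT3G19184) gave 52.7, 88.4, 97.3 and 45.6 in seu ant, against 227, 356, 566 and 471 in seu, a log2 difference of -2.51 (standard error 0.29, limma adjusted p = 0.00027). AT3G46770, a B3-domain gene, gave 132, 129, 101 and 171 in seu ant, against 435, 404, 210.4 and 372 in seu, and had a log2 difference of -1.39 (standard error 0.23, limma adjusted p = 0.00259).

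Smaller decreases were measured in 4 further REM genes. REM16 (AT3G53310) had a log2 difference of -0.69 (standard error 0.16, limma adjusted p = 0.0177) and REM15 (AT5G57720) fell by 0.85 (standard error 0.22, limma adjusted p = 0.0239). REM35 fell by 1.33 (standard error 0.34, limma adjusted p = 0.0242) and AT5G58280 fell by 0.97 (standard error 0.16, limma adjusted p = 0.00223). In the other direction, AT2G16210 gave 1799.6, 2317, 2679 and 2465 in seu ant, against 1716, 1430.3, 1389.6 and 1430.4 in seu, a rise of 0.62 (standard error 0.14, limma adjusted p = 0.0139). This REM gene also rose in ant against wild type, by 1.08 (limma adjusted p = 0.00171). TFS1, a B3 gene that sets flowering time, had a log2 difference of 0.28 that did not pass (limma adjusted p = 0.272). REM15 and REM35 each failed the threshold in 4 of 26 alternative settings and REM16 in 2.

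Polarity regulators set the inner and outer faces of lateral organs. Of 20 listed, 6 were measured, with a median log2 difference of -0.74 against 0 over all probe sets. Of these 6, 3 were lower in seu ant and none was higher, beside 5.5% lower and 4.68% higher among all probe sets. The count includes YAB3, which the study selected on these same arrays. YAB3 (AT4G00180), a YABBY gene that promotes outer (abaxial) fate, gave 5.18, 61.1, 23.9 and 54.9 in seu ant, against 629.7, 406, 546 and 614 in seu. The lowest seu ant value lay under the floor, and the decrease was -4.01 on the log2 scale (standard error 0.38, limma adjusted p = 7.79e-05). PHV (AT1G30490), a class III HD-ZIP gene that promotes inner (adaxial) fate, gave 717, 811, 943 and 885 in seu ant, against 1696, 2378, 1879.9 and 1621 in seu. PHV was lower in all 4 seu ant arrays than in any seu array, by a log2 difference of -1.17 (standard error 0.16, limma adjusted p = 0.000898). NUB (AT1G13400), a zinc-finger gene that supports growth of the stamens and carpels, fell by 1.16 (standard error 0.24, limma adjusted p = 0.00921). Its close relative JAG had a log2 difference of -0.31 (limma adjusted p = 0.259), and YAB5 one of 0.54 (limma adjusted p = 0.298), neither of which passed.

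Regulators of the carpel margin, style and ovule were mixed. Of 31 listed, 8 were measured, with a median log2 difference of -0.40. Of these 8, 3 were lower, 1 was higher and 4 did not pass, beside 5.5% lower and 4.68% higher among all probe sets. The lower ones include NGA1, which the study selected on these same arrays. NGA1 (AT2G46870), which with its NGATHA relatives directs style and stigma formation, gave 86.9, 47.4, 131 and 76.9 in seu ant, against 236, 271, 254 and 234 in seu. It had a log2 difference of -1.63 (standard error 0.22, limma adjusted p = 0.000898), and NGA2 fell by 1.01 (standard error 0.25, limma adjusted p = 0.0206). NGA3 and NGA4 had log2 differences of -0.65 and 0.61, and neither passed (limma adjusted p = 0.123 and 0.386). The calls of NGA2 and SPT were lost in 4 and 6 of 26 alternative settings. SPT and ALC, which encode related bHLH proteins, moved apart. SPT (AT4G36930), which is needed for fusion and growth of the carpel margins, gave 365, 421, 534 and 504 in seu ant, against 558, 766, 954 and 771 in seu, a log2 difference of -0.73 (standard error 0.19, limma adjusted p = 0.0248). ALC (AT5G67110), its paralogue with a role in fruit opening, gave 3315, 3579.7, 3291 and 4047 in seu ant, against 1577, 1754, 1978 and 1712 in seu. ALC rose by 1.02 (standard error 0.09, limma adjusted p = 4.62e-05), a 2.03-fold higher level, with no overlap between the genotypes.

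Several other developmental regulators changed, and all but AT5G66940 among the next were singled out after their values were seen. LAS, a GRAS-family gene required for axillary meristems, gave 25.5, 78.4, 40.9 and 22.7 in seu ant, against 103, 109, 123 and 82.6 in seu, and fell by 1.49 (standard error 0.32, limma adjusted p = 0.0105). PTL, a trihelix gene that limits growth between sepals, gave 97.9, 109, 74.9 and 91.9 in seu ant, against 142, 171, 233 and 208 in seu, a decrease with limma adjusted p = 0.0033. ROXY1, a glutaredoxin gene of petal initiation, fell by 1.09 (standard error 0.31, limma adjusted p = 0.0377), a call that was lost in 7 of 26 alternative settings. AT5G66940, which encodes a Dof zinc-finger protein, gave 205, 173, 408 and 331 in seu ant, against 1275, 1227, 1814 and 2096 in seu, a log2 difference of -2.57 (standard error 0.25, limma adjusted p = 8.5e-05). Among regulators that rose were TCP15, a TCP-family growth regulator, by 0.96 (standard error 0.21, limma adjusted p = 0.0122), and GIS, a zinc-finger gene of trichome initiation, by 1.63 (standard error 0.39, limma adjusted p = 0.0176). SMZ, an AP2-like repressor of flowering, gave 56.7, 65.3, 83.8 and 47.3 in seu ant, against 37.4, 16.6, 28.7 and 11.1 in seu, a rise of 1.42 (standard error 0.40, limma adjusted p = 0.0382), and it failed the threshold in 9 of 26 alternative settings.

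Among genes of hormone synthesis and response, few cytokinin and auxin genes were measured under a gene name. Of 17 listed cytokinin genes 2 were measured and 1 was lower. Of 15 listed genes of auxin synthesis and transport 3 were measured and 1 was lower. Among all probe sets 5.5% were lower and 4.68% higher. ARR15 (AT1G74890), a type-A response regulator that is induced by cytokinin and dampens its signal, gave 94.9, 16.2, 61.0 and 40.5 in seu ant, against 321, 324, 355 and 299 in seu. It had a log2 difference of -2.88 (standard error 0.43, limma adjusted p = 0.00134), and RR16, the other type-A regulator measured, had a difference of 0.87 that did not pass (limma adjusted p = 0.337). UGT76C2, a glucosyltransferase that inactivates cytokinins, gave 22.2, 88.5, 71.7 and 63.7 in seu ant, against 133, 149.5, 160.2 and 244 in seu, and fell by 1.61 (standard error 0.33, limma adjusted p = 0.00858). YUC4 (AT5G11320), a flavin monooxygenase of auxin synthesis, gave 49.0, 90.5, 105 and 84.8 in seu ant, against 285, 310.2, 208 and 263 in seu. YUC4 fell by 1.73 (standard error 0.21, limma adjusted p = 0.000354), while YUC6 and YUC2 had log2 differences of -0.78 and -0.17 that did not pass (limma adjusted p = 0.343 and 0.805).

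Aux/IAA genes encode repressors of the auxin response, and 7 of the 27 listed were measured. Of these 7, 2 were lower and 1 was higher, beside 5.5% lower and 4.68% higher among all probe sets. The lower ones include IAA18, which the study selected on these same arrays, so the count is not fully independent evidence. IAA30 (AT3G62100) gave 41.7, 73.5, 75.2 and 77.5 in seu ant, against 275, 229.8, 254 and 311 in seu, a log2 difference of -2.03 (standard error 0.19, limma adjusted p = 6.69e-05). IAA18 (AT1G51950) gave 382, 439, 458 and 457 in seu ant, against 969, 1261, 1264 and 1271 in seu, a log2 difference of -1.45 (standard error 0.17, limma adjusted p = 0.00035). IAA33 rose by 1.58 (standard error 0.30, limma adjusted p = 0.00561), with 1 of 4 seu arrays at the floor, and without the floor it did not pass (limma adjusted p = 0.232). Also lower were WAG2, a kinase that directs auxin efflux carriers, by a log2 difference of -1.51 (standard error 0.25, limma adjusted p = 0.00233) that was -0.76 with a floor of 32, and HAT2, an auxin-induced HD-ZIP gene, by -1.32 (standard error 0.19, limma adjusted p = 0.000971). GID1B, a gibberellin receptor, fell by 1.34 (standard error 0.25, limma adjusted p = 0.00474), whereas the other receptors GID1A and GID1C had log2 differences of -0.01 and 0.01 (limma adjusted p = 1 each). WAG2, HAT2, UGT76C2 and GID1B were singled out after their values were seen.

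Genes that copy, repair and recombine DNA were gathered by symbol after their values were seen. Of 26 measured, 15 were lower, none was higher and 25 had a negative difference, where 5.5% of all probe sets were lower and 4.68% higher. The median log2 difference was -0.63, against 0 over all probe sets. Called members included EME1A, the partner of the MUS81 nuclease in recombination, which gave 159.7, 162, 214 and 198 in seu ant, against 382, 446, 432 and 454 in seu. EME1A had a log2 difference of -1.23 (standard error 0.10, limma adjusted p = 2.51e-05). TOP3A, a topoisomerase that resolves recombination intermediates, gave 366, 364, 527 and 433 in seu ant, against 816, 798, 778 and 846 in seu, a log2 difference of -0.96 (standard error 0.14, limma adjusted p = 0.00111). PRL (AT4G02060), the MCM7 subunit of the replication helicase, gave 1759, 2540.1, 2399 and 2173 in seu ant, against 3391, 3176, 4356 and 3633 in seu. It fell by 0.72 (standard error 0.13, limma adjusted p = 0.00419), and POLA3, the small primase subunit, fell by 0.59 (standard error 0.15, limma adjusted p = 0.027).

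These changes were smaller than those of the leading falls. RAD5, a helicase of repair after replication, fell by 1.03 (standard error 0.26, limma adjusted p = 0.0203) and TERT, the telomerase reverse transcriptase, by a log2 difference of -0.98 (standard error 0.26, limma adjusted p = 0.0308). The calls of TERT, POLA3 and RAD5 were lost in 7, 6 and 3 of 26 alternative settings, most of them with 1 seu ant or seu array left out. Among genes of meiosis and sporogenous fate, SDS (AT1G14750), a cyclin-like meiotic gene, gave 58.7, 40.3, 45.1 and 28.9 in seu ant, against 106, 85.9, 125 and 82.0 in seu, a log2 difference of -1.23 (standard error 0.21, limma adjusted p = 0.00333). DFO, which is needed for the DNA breaks that start meiotic recombination, stood at the floor in each of the 4 seu ant pools and was thus at least 2.57-fold lower than in seu (limma adjusted p = 0.0213). Its call was lost in 5 of 26 alternative settings, among them a floor of 32. EMS1 (AT5G07280), a receptor kinase that specifies tapetum and germ cells, gave 1139, 1419, 1516 and 1320.2 in seu ant, against 2197, 2483, 2369 and 2393 in seu, and fell by 0.81 (standard error 0.12, limma adjusted p = 0.00102). ATSPO11-1 had a log2 difference of -0.71 that did not pass (limma adjusted p = 0.115).

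Mitotic genes were sparsely measured. AUR1 (AT4G32830), an Aurora kinase of chromosome segregation, gave 1333, 1422, 1930.4 and 1740.0 in seu ant, against 2382, 1966, 2762 and 2189 in seu. It fell by 0.54 (standard error 0.14, limma adjusted p = 0.0234), a call that was lost in 6 of 26 alternative settings, among them centring each array on its median, and its relative AUR2 had a log2 difference of -0.22 (limma adjusted p = 0.326). HTR12, the centromeric histone H3, fell by 0.69 (standard error 0.15, limma adjusted p = 0.0103).

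Among 8 measured SNF2-type chromatin remodelling genes, a family also picked after its values were seen, 7 were lower and none was higher, beside 5.5% lower and 4.68% higher among all probe sets. Their median log2 difference was -0.65. The gene chr31 (CLSY3), which acts in RNA-directed DNA methylation, gave 228, 241, 511 and 305 in seu ant, against 650.0, 756, 959.7 and 777 in seu. It fell by 1.36 (standard error 0.21, limma adjusted p = 0.0018), and its second probe set had a log2 difference of -1.50 (limma adjusted p = 0.0115). CHR40 (CLSY4), a relative with the same role, fell by 0.98 (standard error 0.19, limma adjusted p = 0.00696), and CHR24 fell by 0.89 (standard error 0.09, limma adjusted p = 0.000107). The exception was CHR42 (CLSY2), whose log2 difference of 0.98 did not pass (limma adjusted p = 0.121). The UBP and IQD families were picked in the same way. Of 12 ubiquitin-specific proteases of the UBP family, 3 were lower and none higher. UBP21 had a log2 difference of -0.72 (standard error 0.11, limma adjusted p = 0.00117). Of 11 IQD genes, which encode calmodulin-binding scaffold proteins, 4 were lower and none was higher, and the 4 include IQD18, which the study selected on these same arrays. IQD16 gave 28.8, 7.72, 21.3 and 23.0 in seu ant, against 88.5, 98.8, 124 and 69.9 in seu, a log2 difference of -2.10 (standard error 0.21, limma adjusted p = 9.73e-05), and IQD18 (AT1G01110) gave 115, 129, 234 and 151 in seu ant, against 425, 441, 433 and 393 in seu, a log2 difference of -1.48 (standard error 0.16, limma adjusted p = 0.000178). IQD27 and IQD26 fell by 1.17 and by 0.78 (limma adjusted p = 0.0108 and 0.0104), each with seu array 3 within the seu ant range.

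**Figure D2:**
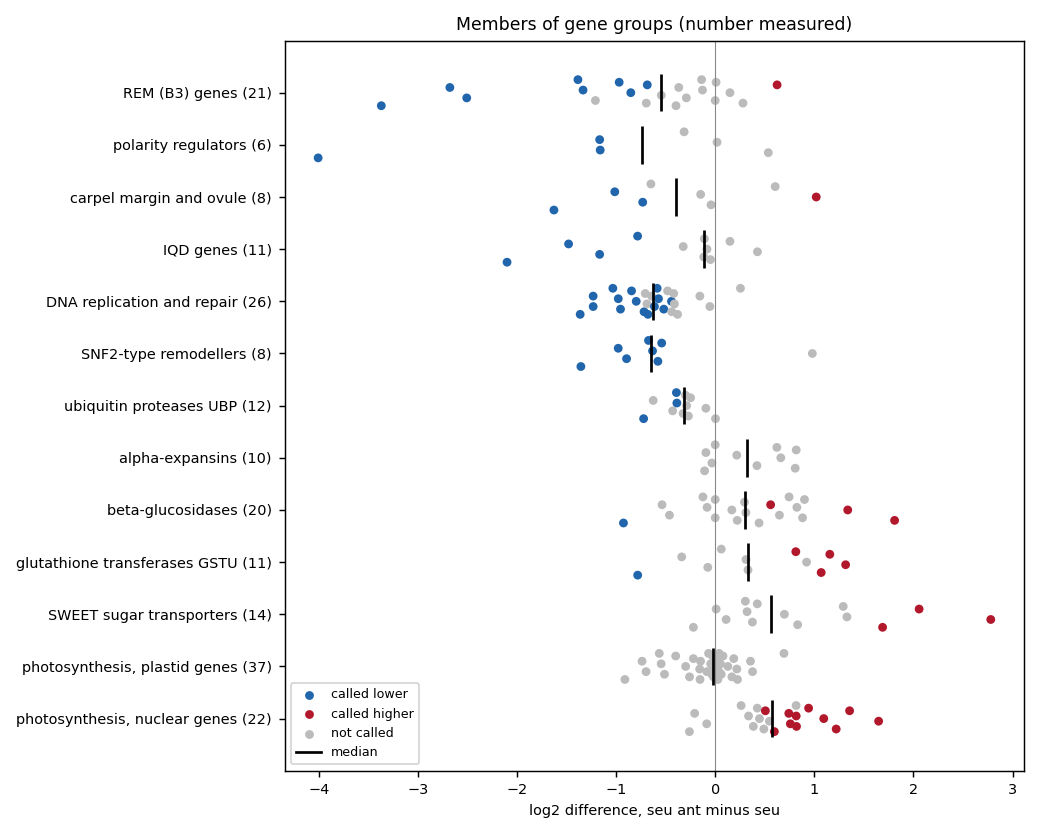
Log2 difference between seu ant and seu for each measured gene of 13 groups, with the number measured in parentheses, coloured by call, and a line at the median of each group. The REM, DNA and remodelling groups lie mostly left of 0, the SWEET and nuclear photosynthesis groups mostly right of it, and none of the 37 plastid genes was called.

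Other deep decreases were in genes of less known function. AT1G68780, a leucine-rich repeat gene, gave 31.5, 32.5, 76.7 and 38.8 in seu ant, against 306, 291, 258 and 301 in seu, and fell by 2.79 (standard error 0.22, limma adjusted p = 1.24e-05). AT3G10200, annotated as dehydration-responsive, gave 83.8, 67.0, 70.3 and 95.2 in seu ant, against 589, 499, 420.5 and 556 in seu, and fell by 2.71 (standard error 0.19, limma adjusted p = 6.55e-06). AT1G19690, annotated as coenzyme-binding, gave 35.2, 54.7, 9.64 and 16.6 in seu ant, against 140.3, 179, 127 and 116 in seu, a log2 difference of -2.38 (standard error 0.35, limma adjusted p = 0.00131). SCPL32 (AT1G61130), a serine carboxypeptidase-like gene, gave 82.0, 119, 150.4 and 151 in seu ant, against 818, 591, 818 and 773 in seu. It fell by 2.61 (standard error 0.19, limma adjusted p = 6.55e-06). SCPL32 is set apart by its direction in the other background, where it gave 186, 195, 202 and 194 in ant, against 94.1, 79.4, 112 and 74.1 in wild type.

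Among loci paired with a gene name, the largest increases varied more between arrays than the largest decreases. Over the 12 largest rises the median SD on the log2 scale was 0.98 in seu ant and 0.94 in seu, and over the 12 largest falls it was 0.59 in seu ant and 0.25 in seu. BSMT1 (AT3G11480), a methyltransferase that converts salicylic and benzoic acid to their volatile esters, gave 1956, 466, 328 and 1352 in seu ant, against 76.6, 145, 4.84 and 6.33 in seu. With 2 of 4 seu arrays at the floor, its rise of 4.28 on the log2 scale (standard error 0.69, limma adjusted p = 0.00214) depends on the floor, and was 3.78 with a floor of 32 or 5.04 with none. All ant and all wild-type arrays were at the floor, so no change could be measured between them. Their SD of 0 also entered the shared estimate of the spread, beside a log2 SD of 1.22 in seu ant and 1.62 in seu. JMT (AT1G19640), which makes the methyl ester of jasmonic acid, gave 1222, 1909, 396 and 732 in seu ant, against 482, 367, 236 and 202 in seu. JMT rose by 1.58 (standard error 0.45, limma adjusted p = 0.04), with seu ant array 3 inside the seu range, and failed the threshold in 12 of 26 alternative settings. UGT74F1, which attaches glucose to salicylic acid and was singled out after its value was seen, was at the floor on 3 of 4 seu ant arrays. Its log2 difference was -2.27 (standard error 0.31, limma adjusted p = 0.000928), with a seu signal of 92.0, 76.7, 103 and 104, and was -1.52 with a floor of 32 or -3.59 with none.

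**Figure D3:**
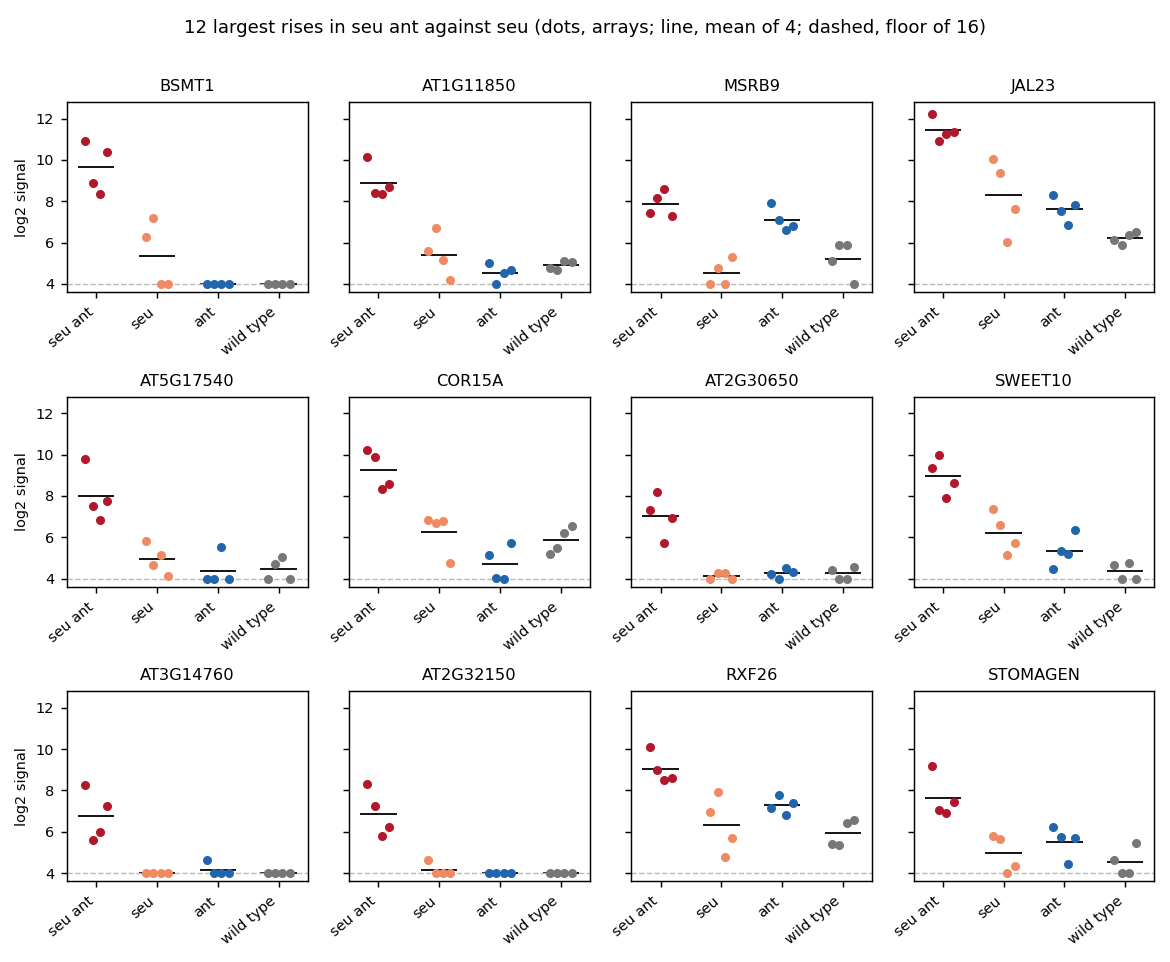
Signal on a log2 scale for the 12 largest rises in seu ant against seu among loci paired with a gene name. Each panel has 1 dot per array, a line at the mean of the 4 arrays of a genotype and a dashed line at the floor of 16. All seu ant dots lie above all seu dots in each panel, the spread within a genotype is wide, and BSMT1 and AT2G32150 are at the floor on all ant and wild-type arrays.

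The arrays did not take equal part in these rises. Of the 12 largest rises, 9 had their highest seu ant signal on array 1 and 9 their lowest on array 3. The same genes were lowest among seu arrays on array 3 in 5 cases and highest on array 1 in 7. Without seu ant array 3, the calls rose to 1315 lower and 1217 higher, and without seu ant array 1 they dropped to 867 lower and 772 higher.

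MSRB9 (AT4G21850), a methionine sulfoxide reductase, gave 174, 284, 389.8 and 159 in seu ant, against 14.7, 27.4, 3.97 and 39.0 in seu. It rose by 3.36 (standard error 0.47, limma adjusted p = 0.000915) and also rose in ant against wild type, by 1.88 (limma adjusted p = 0.0356). JAL23 (AT2G39330), a jacalin-related lectin, gave 4758, 1916, 2479.9 and 2600.0 in seu ant, against 1071, 668, 66.3 and 199.8 in seu, a rise of 3.15 (standard error 0.68, limma adjusted p = 0.0105). RXF26 (AT1G58430), a GDSL-type lipase gene, rose by 2.71 (standard error 0.59, limma adjusted p = 0.011). ECS1 (AT1G31580), a cell wall protein gene, gave 1032, 1045, 316 and 1106 in seu ant, against 94.8, 175, 184 and 99.2 in seu, a rise of 2.57 (standard error 0.44, limma adjusted p = 0.00301).

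Several of the largest rises were in genes known here only by their locus. AT1G11850 gave 1135, 337, 328 and 414 in seu ant, against 48.2, 103, 35.8 and 18.2 in seu, and rose by 3.49 (standard error 0.48, limma adjusted p = 0.000886). AT3G14760 gave 309, 48.6, 63.0 and 151 in seu ant and was at the floor on all 4 seu arrays, so it was at least 6.83-fold higher in seu ant (limma adjusted p = 0.00173). AT2G30650 and AT2G32150 were at the floor on 2 and on 3 of the 4 seu arrays, so the size of their rises depends on the floor. The rise of AT2G30650 was 2.91 (limma adjusted p = 0.000497), and 2.04 with a floor of 32 or 4.17 with none. The rise of AT2G32150 was 2.73 (limma adjusted p = 0.00117), and 1.88 with a floor of 32 or 3.98 with none. AT5G17540 and AT2G25510 rose by 3.04 and 2.62 (limma adjusted p = 0.00577 and 0.0107).

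SWEET genes encode sugar transporters, and the family was picked after its values were seen. Of 14 measured, 3 were higher in seu ant, none was lower and 13 had a positive difference, beside 4.68% higher and 5.5% lower among all probe sets. The median was 0.56 on the log2 scale, and with no floor it was 0.92, with 2 higher. SWEET10 (AT5G50790) gave 653, 1023, 236 and 397 in seu ant, against 162, 95.6, 34.9 and 51.9 in seu, a rise of 2.78 (standard error 0.54, limma adjusted p = 0.00624). SWEET4 rose by 2.06 (standard error 0.48, limma adjusted p = 0.0158). SWEET17, a fructose transporter of the vacuole, gave 1518, 903, 1185 and 1233 in seu ant, against 301, 534, 397 and 289.7 in seu, and rose by 1.69 (standard error 0.23, limma adjusted p = 0.000759). SWEET4 did not pass without the floor, and with quantile normalization 11 of the 14 differences were positive.

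Of 22 listed cold and dehydration genes 4 were measured. Of these 4, 2 rose and none fell, beside 4.68% higher and 5.5% lower among all probe sets. COR15A (AT2G42540) and COR15B (AT2G42530) encode chloroplast proteins that protect membranes in the cold. COR15A gave 1189.9, 958, 319 and 378 in seu ant, against 112, 104, 111 and 26.6 in seu, a rise of 2.99 (standard error 0.59, limma adjusted p = 0.00681). COR15B rose by 1.46 (standard error 0.25, limma adjusted p = 0.00342). The other 2 members measured, COR47 and LTI30, had log2 differences of 0.27 and -0.28 and did not pass (limma adjusted p = 0.762 and 0.772). STOMAGEN (AT4G12970), a secreted peptide that promotes stomata, gave 584, 133, 120.2 and 173 in seu ant, against 56.4, 50.6, 2.05 and 20.5 in seu, a rise of 2.69 (standard error 0.59, limma adjusted p = 0.0113). SPCH, which starts the stomatal lineage, had a log2 difference of 0.95 that did not pass (limma adjusted p = 0.176), and FMA and MUTE, which act later in it, had differences of 0.57 and 0.38 (limma adjusted p = 0.451 and 0.448).

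Some photosynthesis genes encoded in the nucleus rose, mostly by less than the genes above. On the list of 41 light-harvesting, photosystem and carbon fixation genes, 8 were measured. Of these 8, 3 were higher and none was lower, beside 4.68% higher and 5.5% lower among all probe sets. All 8 differences were positive, with a median of 0.50 on the log2 scale. LHCB4.3 (AT2G40100), a minor antenna protein of photosystem II, gave 1426, 1198, 891 and 1186 in seu ant, against 484, 533, 376 and 434 in seu, a rise of 1.36 (standard error 0.22, limma adjusted p = 0.00206). PSAN (AT5G64040), a photosystem I subunit, gave 4026, 3289, 3407 and 3604 in seu ant, against 2084, 2039, 1945 and 2509.8 in seu, a rise of 0.74 (standard error 0.16, limma adjusted p = 0.0114). PSBY (AT1G67740), a photosystem II protein, gave 5437, 5821, 4901 and 4604 in seu ant, against 3878, 3182, 3440.2 and 4132 in seu, and rose by 0.51 (standard error 0.11, limma adjusted p = 0.0103).

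A wider set of 22 nuclear genes that includes these 8, gathered by symbol after the values were seen, had 11 higher and none lower, beside 4.68% higher and 5.5% lower among all probe sets. The median was 0.57. PGRL1B, which acts in cyclic electron flow, gave 679.8, 685, 674 and 709 in seu ant, against 334, 339, 419 and 345 in seu. PGRL1B rose by 0.94 (standard error 0.10, limma adjusted p = 0.000163), with every seu ant array above every seu array. HPR, the hydroxypyruvate reductase of photorespiration, gave 1605, 1959.8, 1112 and 1425 in seu ant, against 573, 540.4, 808 and 676 in seu, a rise of 1.22 (standard error 0.22, limma adjusted p = 0.00445). PIFI and NdhN, which act with the chloroplast NDH complex, rose by 1.65 and 0.82 (limma adjusted p = 0.0134 and 0.0327), and PRK, a Calvin cycle kinase, by 0.82 (standard error 0.23, limma adjusted p = 0.0372). NdhN had seu array 3 within the seu ant range, and NdhN and PRK failed the threshold in 6 and 9 of 26 alternative settings. In limma none of 37 measured photosynthesis genes of the plastid genome was called, where 2 had an unadjusted p under 0.05 and the contrast without moderation called 0, and their median was -0.02. Whether the labelling captures plastid transcripts as it does nuclear ones was not tested, so no lack of change in plastid transcripts follows.

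Among enzyme families of secondary metabolism and detoxification, picked after their values were seen, 4 held more increases than decreases, where 4.68% of all probe sets were higher and 5.5% lower. Of 11 tau-class glutathione transferases, 4 were higher and 1 lower, of 20 beta-glucosidases 3 were higher and 1 lower, and of 22 cytochrome P450 genes 3 were higher and none lower. Of 8 aldehyde dehydrogenases 3 were higher and 1 lower, or 2 and 1 with no floor. BGLU44 gave 2349.6, 1833, 874 and 1799 in seu ant, against 463, 599, 263 and 613 in seu, a rise of 1.81 (standard error 0.33, limma adjusted p = 0.00441). GSTU20 gave 2123, 2682, 1319 and 1926 in seu ant, against 1159, 1009.9, 380.4 and 845 in seu, a rise of 1.32 (standard error 0.33, limma adjusted p = 0.0227). CYP71B26 rose by 1.36 (standard error 0.26, limma adjusted p = 0.00535). Of 47 UDP-glycosyltransferases 2 were lower and 1 higher, and of 6 serine carboxypeptidase-like genes, SCPL32 among them, 2 were lower and none higher. Limma called 0 of 10 alpha-expansins, which loosen cell walls during growth, where 3 had an unadjusted p under 0.05 and the contrast without moderation called 0. The call of GSTU20 was lost in 3 of 26 alternative settings. The 3 flavonoid genes measured, DFR, BAN and UF3GT, were at or near the floor on all 8 arrays.

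The effect of losing ANT was then set beside ant against wild type, where 690 probe sets (3.03%) were lower and 430 (1.89%) higher, 4.92% in all. Of the probe sets lower in seu ant, 136 were also lower in ant, which is 10.9% of the 1251 calls in the seu background and 19.7% of the 690 in the wild-type background. Of those higher in seu ant, 116 were also higher in ant, which is 10.9% of the calls in the seu background and 27.0% of those in the wild-type background. A test of the difference itself, (seu ant minus seu) minus (ant minus wild type), was called at an adjusted p under 0.05 for 531 probe sets (2.33%) with a lower and 632 (2.78%) with a higher value in the seu background. With arrays centred on their medians, the median of ant minus wild type moved by 0.16 on the log2 scale, the ant calls became 297 lower and 1101 higher, and the called differences became 1007 lower and 454 higher. With quantile normalization the ant calls were 475 lower and 481 higher. The balance of lower and higher in these tests therefore rests on the scaling. In seu ant against seu it turned as well, with 1016 lower and 1101 higher when centred, though the share of higher calls moved less, to 52.0% from 46.0% as deposited.

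Most genes called in the seu background alone did not pass the test of the difference. Of 1107 probe sets lower there and not called in ant, 287 had a called difference, and of 901 higher, 285 had one. Among loci paired with a gene name, the lowest of these differences was that of AT5G17080. Its log2 differences were -5.78 in the seu background and -1.18 in the wild-type background, a difference of -4.60 (limma adjusted p = 0.00117). In the wild-type background its ant arrays all lay below the wild-type arrays, though the call did not pass (limma adjusted p = 0.0668). YAB3, VDD and AT1G03720 fell in both backgrounds and further in the seu background, with differences between backgrounds of -2.38, -1.82 and -2.17 (limma adjusted p = 0.027, 0.00181 and 0.0037). ARR15, AT1G68780 and REM22 had log2 differences of -0.28, -0.41 and -0.38 in ant against wild type, none of which passed, and the difference between backgrounds was -2.60, -2.38 and -2.30 (limma adjusted p = 0.0291, 0.00291 and 0.0332). The calls of the differences for YAB3, ARR15 and REM22 were lost in 5, 5 and 10 of 25 alternative settings. The study selected AT5G17080, YAB3, VDD, AT1G03720, AT1G68780 and REM22 on these arrays, so their differences between backgrounds are not independent evidence.

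NGA1 and YUC4 fell in the seu background and not detectably in the wild-type background. The study selected NGA1 on these arrays, so its difference between backgrounds is not independent evidence. NGA1 gave 562, 546, 454 and 643 in ant, against 525, 558, 478 and 466 in wild type, where its log2 difference was 0.11, and the difference between backgrounds was -1.74 (limma adjusted p = 0.0113). For YUC4 the values were 0.17 in ant against wild type and -1.91 between backgrounds (limma adjusted p = 0.00577). NUB fell in both backgrounds, by a log2 difference of -1.16 in the seu background and -1.32 in the wild-type background, and their difference of 0.16 (standard error 0.34) did not pass (limma adjusted p = 0.854). For SPT and ALC the difference between backgrounds also did not pass, at -0.17 and 0.36 (limma adjusted p = 0.771 and 0.132).

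**Figure D4:**
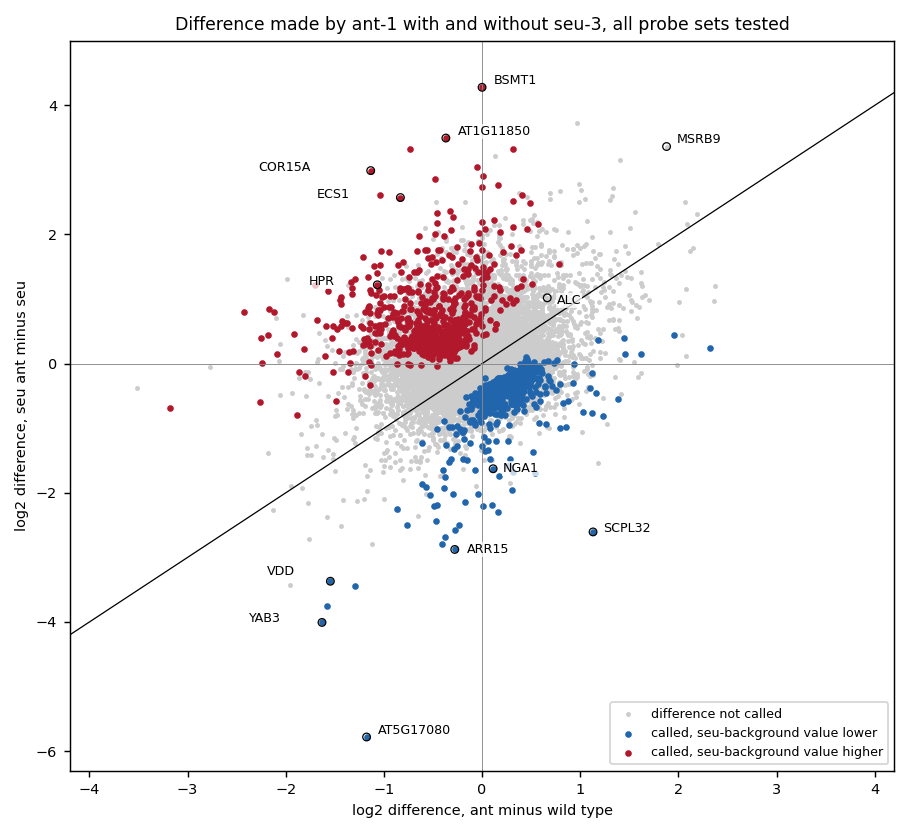
Log2 difference made by ant-1 with seu-3 present (vertical axis) against the difference made without it (horizontal axis) for 22746 probe sets, with called differences between backgrounds in colour and equality on the diagonal. AT5G17080 lies far below the diagonal at -5.78 and -1.18, BSMT1, at the floor on all ant and wild-type arrays, above it at 4.28 and 0.00, and SCPL32 in the lower right at -2.61 and 1.13.

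Some genes moved in opposite directions. In all, 8 of the 1251 probe sets lower in seu ant against seu were higher in ant against wild type. Of the 1065 higher in the first, 48 were lower in the second. Among all probe sets 1.89% were higher and 3.03% lower in ant against wild type. All 56 had a called difference, which calls of opposite sign nearly require. Of the 8, 5 were loci paired with a gene name. SCPL32 was the largest of these 5, with log2 differences of -2.61 and 1.13 and a difference between backgrounds of -3.74 (limma adjusted p = 5.69e-05). Among the 48 were PSAN and HPR, which had log2 differences of -0.63 and -1.07 in ant against wild type (limma adjusted p = 0.0424 and 0.0185). LEA18, a dehydration-related gene, gave 51.7, 100.1, 103 and 108 in seu ant, against 50.1, 4.22, 57.3 and 37.0 in seu. It gave 2.49, 5.11, 8.56 and 2.77 in ant, against 33.3, 57.4, 29.7 and 46.6 in wild type, with every ant array at the floor. SHN3, an AP2-type gene of cuticle formation, had log2 differences of 1.10 and -1.14 (limma adjusted p = 0.0204 and 0.0311). LEA18 and SHN3 were singled out after their values were seen, and in seu ant against seu their calls were lost in 11 and 4 of 26 alternative settings, in the order named.

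For the nuclear photosynthesis set, which was gathered after the values were seen, the medians of the 2 backgrounds had opposite signs. Of its 22 genes, 11 had a called difference between backgrounds, all higher in the seu background. Among all probe sets 2.78% had a called difference that was higher and 2.33% one that was lower. The median of the set was 0.57 in the seu background and -0.39 in the wild-type background. When the arrays were centred on their medians, 8 of the 22 differences were called and the medians were 0.58 and -0.24. COR15A and COR15B, which rose in the seu background, had called differences between backgrounds of 4.12 and 1.64 (limma adjusted p = 0.0179 and 0.0234).

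**Figure D5:**
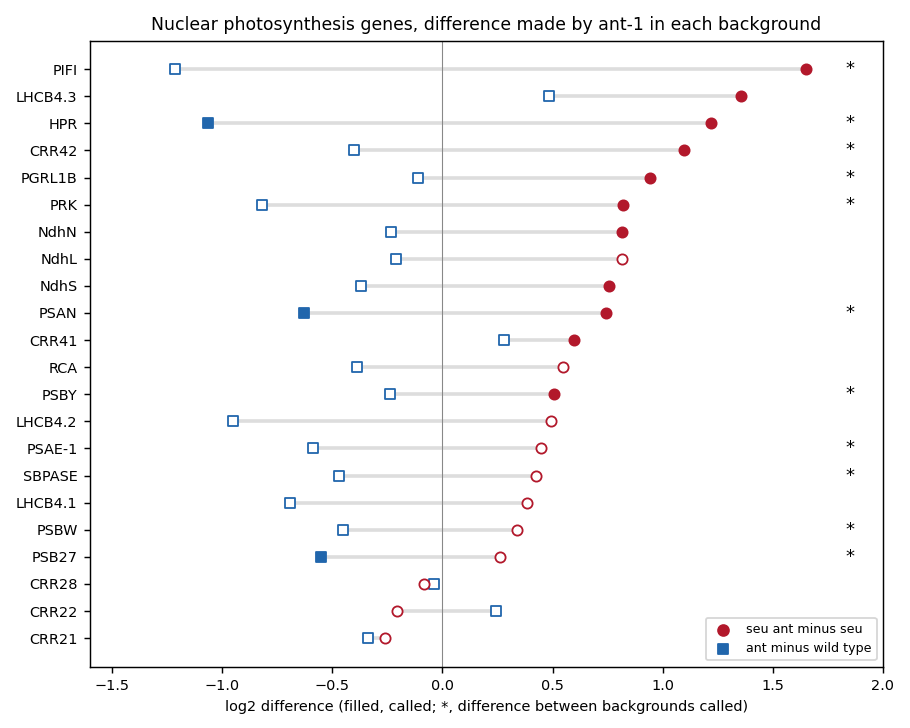
Log2 difference made by ant-1 in the seu background (circles) and in the wild-type background (squares) for 22 nuclear photosynthesis genes, with filled symbols for called differences and an asterisk where the difference between backgrounds was called. The circle lies right of the square in all genes but CRR22 and CRR28, and PIFI at 1.65 and -1.21 is the widest pair.

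The study selected 31 genes on these arrays that fell further in seu ant than the separate mutants predict. It also required each to be significantly lower in seu or ant than in wild type. These genes were measured here in part. Of the 16 paired with a gene name, 15 were lower in seu ant than in seu, and AT1G31310 did not pass, at -0.49 (standard error 0.19, limma adjusted p = 0.131), with a median of -1.74 for the 16. Since they were chosen on these samples by their low levels in seu ant and in seu or ant, their counts in either comparison are not independent evidence. Neither are their differences between backgrounds. NGA1, IQD18, IAA18, EMS1 and AT1G68780, described above, are also among these genes. In ant against wild type 4 of the 16 were lower, and 11 had a called difference between backgrounds. The members not yet described were AT5G48900, a pectate lyase gene that fell by 1.86 (standard error 0.22, limma adjusted p = 0.000285), and AT1G03710, annotated as cystatin-related, which gave 516, 744, 925 and 730.1 in seu ant, against 1917, 1886, 1635 and 1817 in seu, and fell by 1.34 (standard error 0.14, limma adjusted p = 0.000135).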

How the data were processed

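RNA was measured on 16 single-colour Affymetrix ATH1 arrays, 4 for each of 4 genotypes. Each array was 1 pool of gynoecia dissected from ethanol-fixed inflorescences, which the labels call a biological replicate. RNA was extracted with the RNeasy Plant Mini Kit and amplified and biotin-labelled with the GeneChip 3′ IVT Express kit. The deposited values are MAS5 signals, an intensity for each probe set on a linear scale, which the authors scaled to a common level (2% trimmed means 494.8 to 496.0). Its version was not given in the sources used. The study's own tests, per its methods, used loess-normalized values from JMP Genomics, which are not analysed here.

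Signals under 16 were set to 16, log2 was taken, and limma (version 3.58.1, R 4.3.3) was fitted to all 16 arrays with 1 mean per genotype. The contrasts were seu ant minus seu, ant minus wild type, and the difference between these. Benjamini-Hochberg adjustment ran over the 22746 probe sets left after 64 controls were removed, and calls required an adjusted p under 0.05, and, except for the difference between contrasts, an absolute log2 difference over 0.35. The fit was tested on simulated data. No 2 arrays were identical.

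Platform annotation, updated through RefSeq (TAIR10.1) identifiers, paired 13436 probe sets with 1 gene. The other 9310 were tested but are not named, 503 of them because several genes share them. Where a gene had several probe sets, the one with the highest mean log2 signal stood for it, and the only named gene with more was chr31, whose probe sets were both lower. Named genes were, among calls whose arrays did not overlap, the 12 largest falls and 12 largest rises, then the 5 lowest and 5 highest called differences between backgrounds, up to 4 called members of each gene list with uncalled members as contrast, every gene of the study's selected list, and SEU. A further 38 genes were singled out after their values were seen, and gene families were gathered by symbol, also after values were seen. The groups compared and the lists were chosen with earlier results of these data known. Alternatives covered the floor, scaling, filters, the variance model, the call rule, the arrays in the fit, a block for runs of title numbers and each array left out. No sequences are shown, and coordinates are not used here.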

Additional observations from a re-analysis of the deposited data

Results flagged for a closer look

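Within each genotype, the array farthest from its neighbour was compared with the range of the 4 arrays on the log2 scale, for the genes named in the report. In 17 of 187 groups of 4 the gap, as a share of the range, was past Dixon's 95% critical value, where chance gives about 1 in 20. On seu ant array 1 the share was past that limit for IAA30 (0.914), SEU (0.857) and LEA18 (0.902). On seu array 1 the share was past that limit for AT5G48900 (0.865), IAA18 (0.971), CHR40 (0.867), SEU (0.853) and AT2G16210 (0.863). The other arrays past it were seu array 3 for IQD27 (0.846), PGRL1B (0.860) and COR15B (0.934), seu array 2 for RAD5 (0.856), seu ant array 3 for ECS1 (0.945) and seu array 4 for COR15A (0.945). The share was 1.0 in 3 groups with 3 arrays at the floor, which were UGT74F1 on seu ant array 4, A9 on seu ant array 1 and AT2G32150 on seu array 1. Array 1 thus held 10 of the 17, 4 in seu ant and 6 in seu. No explanation was tested.

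The log2 difference made by ant-1 was tested for a change between the seu and the wild-type background, and the values below are seu ant minus seu less ant minus wild type. It was called by limma for 44 of the 95 genes named, many of which had been named for this test or for their change in seu ant. Lower in the seu background were AT5G17080 (-4.60), SCPL32 (-3.74), ARR15 (-2.60), YAB3 (-2.38), AT1G68780 (-2.38), REM22 (-2.30), AT5G66940 (-2.29), AT1G03720 (-2.17), YUC4 (-1.91), DFO (-1.89), VDD (-1.82), NGA1 (-1.74), IAA30 (-1.50), AT1G03710 (-1.40), chr31 (-1.39), IQD18 (-1.29), AT5G48900 (-1.25), HAT2 (-1.04), PHV (-0.98), AUR1 (-0.86), EMS1 (-0.83), UBP21 (-0.80), EME1A (-0.62) and CHR24 (-0.50). Higher in the seu background were BSMT1 (4.28), COR15A (4.12), AT1G11850 (3.86), AT2G25510 (3.66), ECS1 (3.40), AT5G17540 (3.09), AT2G30650 (2.90), PIFI (2.86), AT2G32150 (2.73), AT3G14760 (2.61), LEA18 (2.60), HPR (2.29), SHN3 (2.23), BGLU44 (2.07), COR15B (1.64), PRK (1.64), PSAN (1.37), SWEET17 (1.34), PGRL1B (1.05) and PSBY (0.75). BSMT1, AT2G30650, AT2G32150, AT3G14760, AT5G17540, DFO and LEA18 had 2 or more arrays of a genotype at the floor, so the size of their values depends on it. Of the 44 calls, 24 were kept under every alternative setting.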

How the results depend on the processing

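The number of arrays limits the precision, and low signals have little order since those under 16 were set to 16. In seu ant against seu the counts of 1251 lower and 1065 higher stayed within 1.5 times under every other floor, scaling, filter, variance model and array set tried. They became 194 and 495 with a log2 limit of 1. With only the 8 compared arrays in the fit they were 844 and 736, near that limit. In that fit 41 of the 57 genes named by rule were called, against 53 with all arrays, and list members called lower were 21, against 30. The ant against wild type counts (690 lower, 430 higher) became 422 and 267 with no floor, 297 and 1101 with arrays centred on their medians, and 239 and 151 with only those 8 arrays in the fit. The called differences between backgrounds (531 lower, 632 higher) became 228 and 374 with no floor, 1007 lower when centred, and 2287 and 2358 at an unadjusted p under 0.05. The cause was not tested. The share of higher calls was 38.4% on the deposited scale, 78.8% centred and 50.3% with quantile normalization in ant against wild type, and 54.3%, 31.1% and 49.7% for the difference between backgrounds. No paired analysis was possible because the labels give no replicate numbers shared between genotypes. The numbers in the array titles form 2 consecutive runs, each with 2 arrays of every genotype, though no source calls these runs batches. A block for them, chosen after the data were seen, gave 1200 lower and 1081 higher in seu ant against seu, 669 and 416 in ant against wild type, and 514 and 615 called differences. It ended no call of a named gene in seu ant against seu, and ended the called difference between backgrounds of AT5G17540 and DFO (limma adjusted p = 0.0581 and 0.0508). The 2316 probe sets called in seu ant against seu all had the same direction within both runs. Each had been called on these same arrays, which nearly fixes that outcome, so it is no evidence about the runs.

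With 1 array left out in turn, seu ant against seu had 867 to 1315 lower and 771 to 1217 higher, list members called were 25 to 32 lower (30 with all arrays) and 10 to 12 higher (11 with all arrays), and 48 to 54 of the 57 genes named by rule were called (53 with all arrays). Ant against wild type had 313 to 781 lower and 214 to 448 higher, and counts more than 1.5 times smaller came without wild type array 1 (316 and 214), wild type array 3 (405 lower), wild type array 4 (355 and 282), ant array 2 (414 lower) or ant array 3 (313 and 245). The difference between backgrounds had 297 to 660 lower and 387 to 801 higher, and counts more than 1.5 times smaller came without seu array 1 (334 lower), seu array 3 (297 and 387), seu ant array 2 (302 and 402), wild type array 1 (349 lower) or wild type array 4 (336 lower). Of the 8 carpel margin genes 1 was called lower without seu array 3 or seu array 4, and the REM median of -0.54 was -0.81 without seu ant array 3 and -0.85 with no floor.

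Of 91 named genes called in seu ant against seu, 60 were kept in every setting and none reversed. The calls lost in more than 1 setting, with the highest limma adjusted p reached, were JMT (0.131), LEA18 (0.151), PRK (0.109), SMZ (0.101), TERT (0.0792), ROXY1 (0.112), SPT (0.0746), NdhN (0.155), AUR1 (0.0868), POLA3 (0.127), DFO (0.212), REM15 (0.0835), NGA2 (0.122), REM35 (0.125), SHN3 (0.0599), GSTU20 (0.0987), RAD5 (0.0631), REM16 (0.0998) and GIS (0.0967). Some calls were lost only when the fit held just the 8 compared arrays (limma adjusted p in parentheses). They were UGT76C2 (0.0856), JAL23 (0.0847), IQD27 (0.0843), HTR12 (0.08), RXF26 (0.0762), LAS (0.0736), IQD26 (0.0668), NUB (0.0625) and STOMAGEN (0.0573). For 24 of 44 called differences between backgrounds every setting kept the call, and those lost in more than 5 settings were AT5G17540 (0.297), DFO (0.475), CHR24 (0.085), HAT2 (0.0805), SWEET17 (0.0634), REM22 (0.0687), AT3G14760 (0.141), AT5G48900 (0.0694), EME1A (0.0621) and PHV (0.0569). Leaving out the probe sets that never exceeded the floor was chosen after the data were seen and gave 1191 lower and 1089 higher in seu ant against seu.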
